A study of Solanum lycopersicum with 4 samples.

Results

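Leaves of tomato (Solanum lycopersicum, cultivar Moneymaker) kept for 48 h at 10 °C were compared with leaves kept for 24 h at 10 °C, by RNA-seq of the first pair of true leaves. The comparison uses 2 of the 4 libraries of a time course, the one titled with 48 h and the one titled with 24 h, with 1 library a side. The other libraries, at 3 h and 0 h, were used for scaling, for the choice of genes and to place the levels in time. All plants were of the same cultivar and 3 weeks old, and no mutant or transgene is named in the labels. Growth before the treatment was at 25 °C with light of 100 µmol m-2 s-1, the cold was given with light of 40 µmol m-2 s-1, and the photoperiod was 12 h in both. Leaves at 48 h and 24 h thus shared the temperature, the lower light and, by their nominal times, the hour of day, and differed by 1 more day and night in the cold. The time of the 0 h library implies a harvest before the move to the cold, although its title names 10 °C like the other titles. The number of plants behind each library is not given in the sources used here.

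Tomato is a chilling-sensitive plant of warm climates, in which temperatures above freezing but below the optimum slow growth and impair photosynthesis. Exposure to such temperatures also raises tolerance to later, colder conditions, a process called chilling acclimation that involves changes in many transcripts and metabolites. Plant transcripts also follow the time of day, so leaves taken at the same nominal hour on consecutive days compare days in the cold with that source of difference reduced.

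Genes were compared when they were listed in all 4 files and averaged at least 5 CPM (counts per 1000000 reads of the TMM-scaled library), which kept 13840 of the 26219 genes listed anywhere. The library at 48 h held 37.4 M unique reads (M, units of 1000000) and that at 24 h 35.7 M, with 24472 genes listed at 48 h and 24233 at 24 h. Ratios are log2 differences of 48 h minus 24 h after 5 reads at the mean library size (0.135 CPM) were added, which understates the change of low genes. With 1 library a side there is no test, no p-value and no replicate check of any difference below. Intervals are exact Clopper-Pearson intervals (95%) for counting error alone, and PCR copies of a molecule count as separate reads in them. Differences are between these libraries. The files give gene identifiers without names, and none of the 26219 matched RefSeq's genes for the assembly SLM_r2.1, so genes could not be grouped by function and the labelled tissue could not be checked against leaf markers. No more than 2 higher and 2 lower genes are given by identifier. Also, in whole leaves fewer cells of a type and less RNA per cell cannot be told apart.

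Few genes differed between the second and the first day in the cold, and they went both ways. Of the genes compared, 14 were 4-fold or more higher at 48 h and another 14 were 4-fold or more lower, each 0.101% of the genes compared and 0.202% together. At least 2-fold higher were 155 genes (1.12%) and at least 2-fold lower 203 (1.47%), 2.59% together. The same count of 2-fold differences was 5.89% between 3 h and 0 h and 17.9% between 24 h and 0 h. The root mean square of the log2 ratio was 0.40 for 48 h to 24 h, beside 0.56 for 3 h to 0 h and 0.86 for 24 h to 0 h. The first and the third of these ratios share the 24 h library. By their nominal times, the 3 h and 0 h libraries also differ in the hour of day, unlike those at 48 h and 24 h. The median of the 48 h to 24 h ratio was 0.0015, the quartiles were -0.21 and 0.21, and the 5th and 95th percentiles -0.63 and 0.55.

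These differences were larger than counting error for most genes, while the spread between plants is not known. The counting interval excluded equal levels for 8941 genes, 64.6% of those compared, at a median half-width of 0.14 in log2. It excluded any difference under 2-fold for 237 genes, 84 of them higher at 48 h and 153 lower, and any under 4-fold for 16. All 28 genes beyond 4-fold had intervals that excluded a difference under 2-fold, which the threshold all but ensures at this depth. Just inside the 4-fold limit the ratios were 2.04 and -2.02, and just outside it 1.97 and -1.94.

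**Figure D1:**
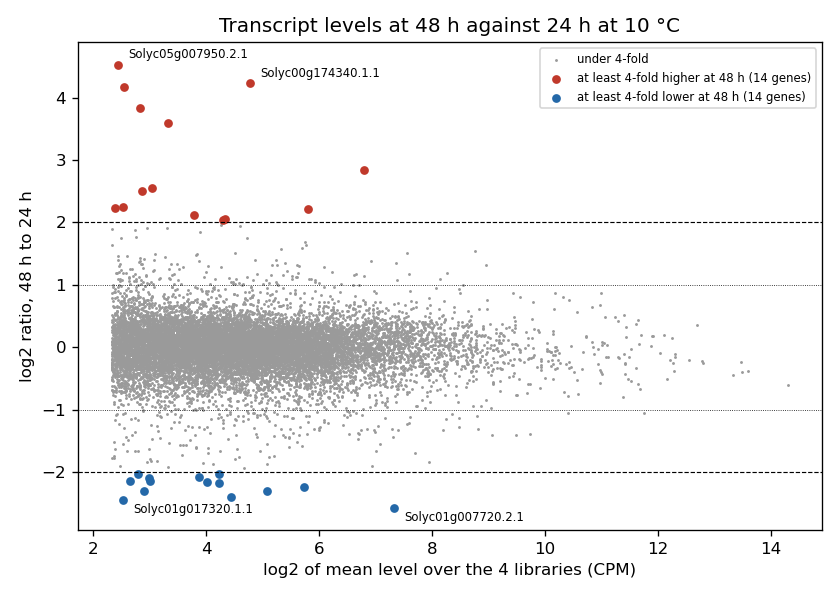
Each point is 1 of the 13840 genes compared, with the log2 of its mean level over the 4 libraries (CPM) across and its log2 ratio of 48 h to 24 h up. Dashed lines mark 4-fold and dotted lines 2-fold, red and blue points are the 14 higher and 14 lower genes, and the higher ones reach 4.53 while the lower ones end at -2.57.

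Some of the higher genes reached farther from 24 h than any of the lower ones. Among the 14 higher genes 5 had ratios of at least 3.59, the next was at 2.85 and the remaining 8 lay between 2.04 and 2.56. Of these 5, 4 belong to 2 pairs of neighbours with nearly the same profile, described below. Apart from Solyc00g174340.1.1, the 5 were under 5 CPM at 0, 3 and 24 h, and so passed the filter through the 48 h library. The 14 lower genes lay close together, between -2.57 and -2.02. At 48 h the higher genes had between 13.6 and 371 CPM with a median of 23.1, and at 24 h between 0.74 and 51.5 CPM with a median of 3.74. The lower genes had between 2.64 and 60.8 CPM at 48 h, with a median of 6.83, and between 13.8 and 362 CPM at 24 h, with a median of 32.0.

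Solyc05g007950.2.1 on chromosome 5 had the largest ratio. In the order 0, 3, 24 and 48 h, its reads numbered 20, 13, 28 and 834, or 0.55, 0.40, 0.74 and 19.99 CPM. The first 3 libraries were alike and low, and the last stood far above them. Between 48 h and 24 h it differed 27.1-fold (18.6 to 41.1), which is 4.53 in log2 with the added reads. The ratios of 24 h to 0 h (1.33, from 0.72 to 2.49) and of 3 h to 0 h (0.73, from 0.33 to 1.53) both had intervals that included no difference. Its numbered neighbours did not share this course, with log2 ratios of 48 h to 24 h of 0.50 and -0.24. Reads covered 96.3% of the gene at 48 h and 75.1% at 24 h.

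The second largest ratio was that of Solyc00g174340.1.1, whose identifier carries chromosome number 0, the number given to genes not placed on a chromosome. Over the 4 times, from 0 to 48 h, 386, 119, 179 and 3776 reads were counted, or 10.7, 3.67, 4.71 and 90.5 CPM. It was thus lower at 3 h and 24 h than at the start and highest at 48 h. The level at 48 h was 19.2-fold that at 24 h (16.5 to 22.5) and 8.47-fold that at 0 h (7.63 to 9.43), while that at 3 h was 2.91-fold below 0 h (2.36 to 3.602). The gene numbered just before it followed the same course, with 158, 47, 95 and 1318 reads at 0, 3, 24 and 48 h and a log2 ratio of 3.59. Reads covered 51.9% of Solyc00g174340.1.1 at 48 h and 51.04% at 24 h.

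A second pair of consecutively numbered genes, on chromosome 4, also stood among the 5 largest ratios, and the 4 genes of the 2 pairs had nearly the same profile. Their log2 ratios of 48 h to 24 h lay between 3.59 and 4.23, and those of 3 h to 0 h, which use other libraries, between -1.51 and -1.46. Set against the 0 h library, the log2 ratios ran from -1.25 to -0.77 for 24 h and from 2.58 to 3.07 for 48 h. No pair of consecutive numbers held 2 genes that were 4-fold lower. Whether reads of similar neighbouring copies were shared in the counting was not tested.

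The smallest ratio belonged to Solyc01g007720.2.1, a gene of chromosome 1. Reads at 0, 3, 24 and 48 h numbered 2155, 5100, 13770 and 2538, or 59.6, 157, 362 and 60.8 CPM. The level was highest at 24 h and at 48 h was back at that of 0 h, with a ratio of 48 h to 0 h of 1.02 (0.96 to 1.08). The gene was 5.96-fold lower at 48 h than a day before (5.71 to 6.22), a log2 ratio of -2.57. At 3 h it was 2.64-fold above 0 h (2.51 to 2.78). Among the 28 genes it had the highest level at 24 h. Reads covered 91.5% of the gene at 24 h and 86.9% at 48 h. It lies in a stretch of chromosome 1 where 32.1% of the genes compared were under 70% covered at both times. The source of the reads there was not tested.

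Solyc01g017320.1.1, a gene of 207 bases also on chromosome 1, followed with 54, 133, 566 and 110 reads over the 4 times, or 1.49, 4.11, 14.9 and 2.64 CPM. It too was highest at 24 h, and at 48 h lay between its 0 h and 3 h levels. On the second day it was 5.65-fold lower than on the first (4.60 to 6.993), a log2 ratio of -2.44. Relative to 0 h it was 2.75-fold higher at 3 h (1.99 to 3.84) and 1.76-fold higher at 48 h (1.26 to 2.49). Between these genes, only the deposited RPKM allows a comparison of levels per length. At 48 h it was 211 for Solyc00g174340.1.1, 76.7 for Solyc01g007720.2.1, 25.5 for Solyc05g007950.2.1 and 14.2 for Solyc01g017320.1.1.

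**Figure D2:**
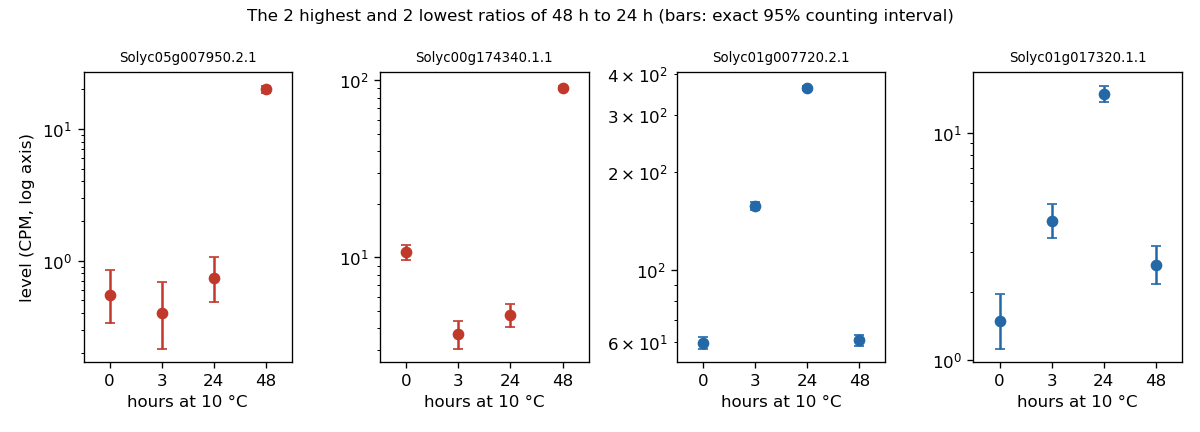
The 4 panels show the level (CPM, log axis, a different range in each panel) of the 2 genes with the largest and the 2 with the smallest ratio of 48 h to 24 h, at 0, 3, 24 and 48 h. Points are single libraries with exact 95% counting intervals; the red genes peak at 48 h (19.99 and 90.5 CPM) and the blue ones at 24 h (362 and 14.9 CPM).

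The lower genes had a common shape over the 4 libraries, with a peak at 24 h, and the higher genes were more mixed. Of the 14 lower genes 13 had their highest level at 24 h and 1 at 3 h. Set against 0 h, their median log2 ratios over 3, 24 and 48 h were 1.17, 2.63 and 0.37, and 11 were within 2-fold of 0 h at 48 h, a share close to the 11278 of 13840 among all genes compared. Of the 14 higher genes 11 had their highest level at 48 h and the other 3 at 3 h. For these the medians over the same times were -0.46, -0.33 and 2.89. At 24 h 6 of them were at least 2-fold below 0 h and 3 at least 2-fold above, against 1146 and 1335 of the 13840 genes compared, ratios that share the 24 h library with the choice of these genes. The lowest level was at 24 h in 3 of the 14, close to the 23.4% of all genes. Among all genes compared, 23.1% had their highest level at 24 h and 26.4% at 48 h. Since the genes were chosen on the 48 h and 24 h libraries, a peak at 24 h in the lower ones and at 48 h in the higher ones is in part fixed by the choice.

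**Figure D3:**
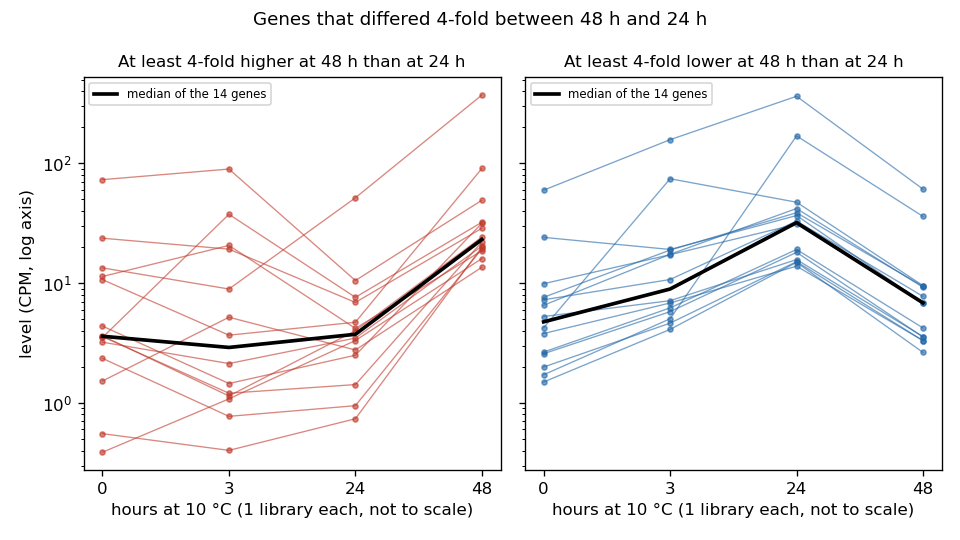
Lines give the level (CPM, log axis) of each gene at 0, 3, 24 and 48 h, with the 14 genes at least 4-fold higher at 48 h than at 24 h on the left and the 14 lower ones on the right, and the black line the median of each set. On the right the median peaks at 32.0 CPM at 24 h, and on the left it stays at 3.597, 2.90 and 3.74 CPM before it reaches 23.1 CPM at 48 h.

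The wider sets showed the same shapes less sharply. The 155 genes at least 2-fold higher had median levels of 9.99, 13.5, 6.87 and 19.3 CPM over 0, 3, 24 and 48 h. Those of the 203 genes at least 2-fold lower were 16.1, 20.7, 36.0 and 13.7 CPM. Relative to 0 h, the higher genes had a median of 0.56 (log2) at 48 h (quartiles -0.26 and 2.15) and of -0.76 at 24 h (-1.56 and 0.52). The lower genes had a median of -0.19 at 48 h (-0.998 and 0.73) and of 1.27 at 24 h (0.32 and 2.21). All these ratios share libraries with the choice of the genes, so their sizes and directions are not independent of it. At 48 h 72 of the 155 higher and 109 of the 203 lower genes were within 2-fold of 0 h, against 11278 of the 13840 genes compared.

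The libraries at 3 h and 0 h had no part in choosing these genes by their 48 h to 24 h ratio, apart from the filter and the scaling, and there the genes also differed more often than genes in general. At 3 h 9 of the 14 genes that were 4-fold lower at 48 h than at 24 h were at least 2-fold above 0 h, against 4.76% of all genes compared. Above 0 h at all lay 13 of the 14, against 50.4% of all. Whether these 14 are separate signals was not tested. The chromosome 1 stretch described below holds 2 of them, and genes of chromosomes 6 and 10 had nearly the same log2 ratio of 3 h to 0 h (1.12, 1.16 and 1.18). So did Solyc01g007720.2.1, Solyc01g017320.1.1 and a gene of chromosome 8 among themselves (1.40, 1.38 and 1.39). Some of the 14 lower genes, such as Solyc01g017320.1.1, were under 5 CPM in each library but that at 24 h, and so passed the filter through it. Of the 14 that were 4-fold higher, 3 were at least 2-fold above 0 h at 3 h and 5 at least 2-fold below it, where 1.13% of all genes were. These 5 include the 4 genes of the 2 consecutive pairs. Apart from Solyc00g174340.1.1, these 5 were under 5 CPM at 0, 3 and 24 h, with 25 to 47 reads at 3 h. They thus passed the filter through the 48 h library, and their share is not independent of the choice. Of the 203 genes 2-fold lower at 48 h than at 24 h, 46 (22.7%) were at least 2-fold above 0 h at 3 h and 5 (2.46%) at least 2-fold below, with a median log2 ratio of 0.37. Of the 155 genes 2-fold higher, 31 were above and 10 (6.45%) below by 2-fold, with a median of 0.06. Limited to genes of at least 20 CPM on average, 24.6% of 114 lower and 19.0% of 63 higher genes were 2-fold above 0 h at 3 h, against 4.63% of 7490. Both sets thus held a larger share of genes that differed between 3 h and 0 h than all genes did, and the lower set had the larger median. By their nominal times these libraries differ in the hour of day as well as in temperature and light, which cannot be told apart here.

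**Figure D4:**
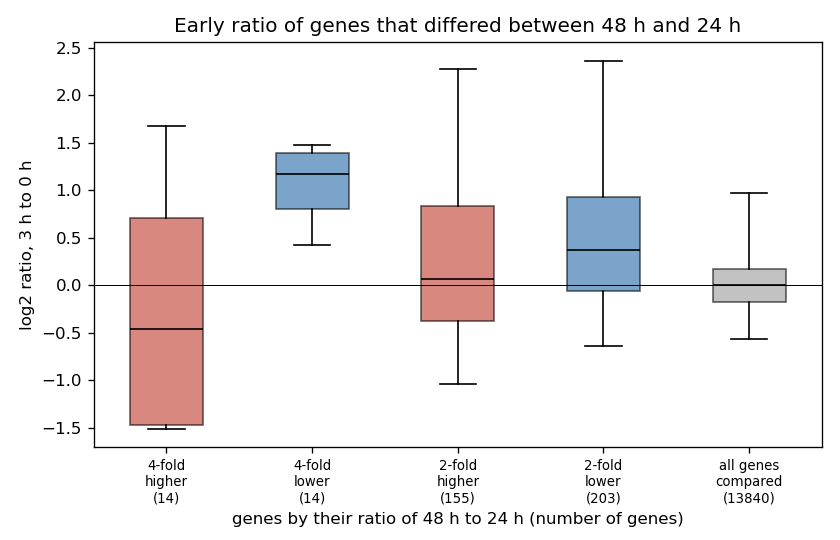
Boxes show the quartiles and whiskers the 5th to 95th percentiles of the log2 ratio of 3 h to 0 h, for genes grouped by their ratio of 48 h to 24 h and, at the right, for all 13840 genes compared. The medians are -0.46 and 1.17 for the 4-fold higher and lower genes, 0.06 and 0.37 for the 2-fold sets, and 0.0024 for all.

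Seen from the other side, genes that differed at 3 h had medians near 0 between 48 h and 24 h and a larger share of 2-fold differences both ways. The 659 genes at least 2-fold higher at 3 h than at 0 h had a median log2 ratio of 48 h to 24 h of -0.018 (quartiles -0.40 and 0.35), beside 0.0015 for all genes, and this median was 0.053 with plain library totals and -0.10 at a minimum of 20 CPM. Among them 31 (4.70%) were 2-fold or more higher at 48 h and 46 (6.98%) as much lower, against 1.12% and 1.47% of all genes. The 156 genes at least 2-fold lower at 3 h had a median of -0.015, with 10 (6.41%) higher and 5 (3.21%) lower by 2-fold at 48 h. Of the 13025 genes within 2-fold of 0 h at 3 h, 0.875% were higher and 1.17% lower.

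Position along the chromosomes set one group of lower genes apart. By convention the identifiers number tomato genes in order along each chromosome, in steps of 10, and 1 step is called a place here. Around Solyc01g007720.2.1 an unbroken run of 35 genes compared, from 44 places before it to 3 places after it, lay below their 24 h level at 48 h, 13 of them by at least 2-fold. The longest other run of genes below 24 h in the data was 17 and the longest run above it 13. At Solyc01g007720.2.1 and in the 40 places before it, all 28 genes compared were lower at 48 h than at 24 h, against 49.8% of all genes. Of these 28, 12 were at least 2-fold lower, against 1.47% of all genes, and 2 at least 4-fold. The ratios lay between -2.57 and -0.23 with a median of -0.88. In the next 40 places 14 of 30 genes were below 24 h with a median of 0.01, and in the 40 places before the stretch 10 of 22, with a median of 0.01. A window of the same length held at most 3 genes that were 2-fold lower wherever it shared no place with this stretch. The stretch was noticed in these data and described on the same data.

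**Figure D5:**
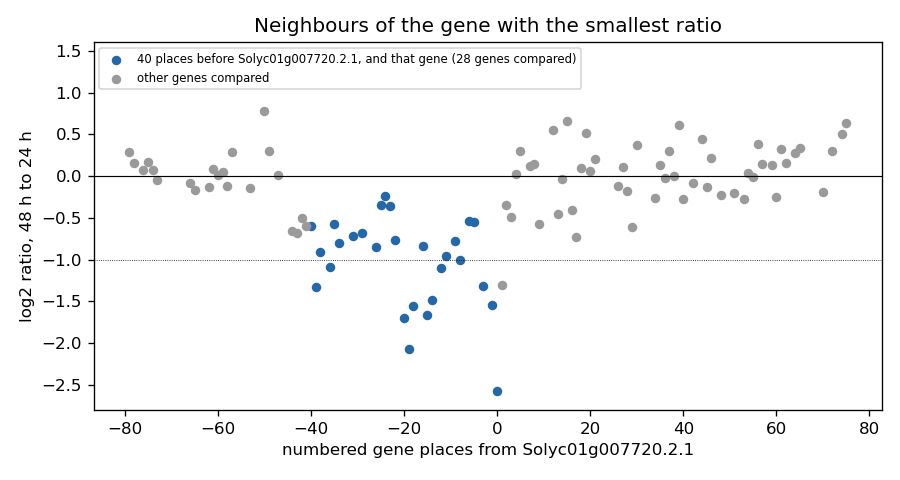
Points are the genes compared on chromosome 1, by their number of places from Solyc01g007720.2.1 (across) and their log2 ratio of 48 h to 24 h (up), with a dotted line at 2-fold lower. The 28 blue points all lie below 0 with a median of -0.88, and the gray points on both sides scatter around 0 apart from those next to the stretch.

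The stretch was picked around the smallest ratio of 48 h to 24 h, so a high level at 24 h in its genes is in part fixed by that choice. Over 3, 24 and 48 h their median log2 ratios to 0 h were 0.16, 0.67 and -0.13, and 27 of the 28 were above 0 h at 24 h, against 51.4% of all genes. One gene took 87.7% of the reads of the stretch at 24 h and had the most reads of any gene in that library, with 605337 reads at 48 h and 834036 at 24 h, a log2 ratio of -0.60. The other 27 together summed to 1978, 1918, 3090 and 1435 CPM over the 4 times, and were 2.15-fold lower at 48 h than at 24 h (2.13 to 2.18). In 9 of the 28 genes (32.1%) reads covered under 70% of the gene at both times, against 2.83% of all genes compared, although every gene of the stretch had at least 143 reads at 48 h and at least 260 at 24 h. The least covered gene had 143 reads over 19.5% of its length at 48 h and 374 reads over 19.6% at 24 h. What lies in this stretch is not annotated in the sources used here. Whether its reads came from these genes or from similar sequence elsewhere was not tested. The counts of the stretch, those of Solyc01g007720.2.1 included, may therefore not measure transcripts of these genes alone. Low coverage was also seen elsewhere, in lower and in higher genes. Of the 14 genes 4-fold lower, genes of chromosome 10 were covered over 46.6% and 54.3% at 24 h, and a gene of chromosome 12 over 42.7%. The median of the 14 was 88.7% at 24 h, against 97.3% for all genes compared. The 14 genes 4-fold higher had a median coverage of 84.6% at 24 h and 97.0% at 48 h. Among them, at 48 h, a gene of chromosome 1 had 1010 reads over 34.1% of its length. Solyc00g174340.1.1 had 3776 reads over 51.9%. The source of the reads of these lower and higher genes was not tested either.

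Elsewhere, neighbours shared a difference in few cases. Of 7231 pairs of genes compared with consecutive numbers that had no gene in the run of 35, 5 had both genes at least 2-fold higher at 48 h, 6 had both at least 2-fold lower, and 3 had one of each. A gene 2-fold lower had a 2-fold lower partner in 7.23% of its pairs, where 1.15% of all places in these pairs were held by such genes, and for higher genes the shares were 6.67% and 1.04%. Inside or at the edge of the run, 5 more pairs had both genes 2-fold lower. By chromosome, the share of 2-fold lower genes ran from 0.895% on chromosome 9 to 2.50% on chromosome 11, and that of higher genes from 0.568% on chromosome 11 to 2.22% on chromosome 10. Chromosome 11 thus had 5 higher and 22 lower genes of 880, and chromosome 10 had 20 higher and 17 lower of 902. The 76 unplaced genes, with 3 higher and 3 lower, were not counted in these ranges.

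Genes that differed were shorter than genes in general, the lower ones most. The 14 genes 4-fold lower had a median length of 671 bases and the 203 genes 2-fold lower one of 1062, against 1487 for all genes compared. Under 500 bases long were 6 of the 14 and 38 of the 203 (18.7%), against 4.90% of all. Among genes of at least 20 CPM on average, 7.02% of the lower and 6.35% of the higher genes were that short, against 3.68% of 7490. The 4-fold higher genes had a median of 907 bases, with 2 of the 14 under 500, and the 2-fold higher ones had a median of 1311, with 7.10% under 500.

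The most abundant transcripts were slightly lower at 48 h. The 50 genes with the highest mean level took 16.7% of all reads at 48 h and 18.8% at 24 h, and 32 of them were below and 18 above their 24 h level. They include the most-read gene of the chromosome 1 stretch, with 605337 reads at 48 h and 834036 at 24 h, whose source of reads was not tested. Their median log2 ratio was -0.15 (quartiles -0.36 and 0.16), and their ratios ran from -1.06 to 0.52, with 1 gene 2-fold lower and none 2-fold higher. The 500 most abundant took 42.2% of reads at 48 h and 44.4% at 24 h, with a median of -0.056 that turned to 0.021 with plain library totals, 12 genes 2-fold lower and 5 higher. Lower genes outnumbered higher ones among well-expressed genes, and the counts were near even among weakly expressed ones. Between ranks 501 and 2768 by mean level, 38 genes were 2-fold lower and 13 higher, from rank 2769 to 6920 there were 59 and 40, and from rank 6921 to 13840 there were 94 and 97. Of the 28 genes beyond 4-fold, 22 were in this last group, where levels were under 22.5 CPM and counting error is largest. With plain library totals in place of TMM, which put the median ratio of all genes at 0.07, the 2-fold genes split into 187 higher and 175 lower, and with TMM but no minimum they split into 535 and 473, so the excess of lower genes depended on the scaling and on the filter.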

How the data were processed

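Each deposited table gave, per the file headers, gene by gene a count of unique reads, a length, a coverage percent and an RPKM value. Counts were whole numbers of at least 1 that summed to the total in each header, and the authors' RPKM followed from count, length and that total. For the alignment, the counting and its strand setting, the build and any filter, nothing is given in the sources used here. If unique reads exclude those matching several copies, near-identical genes are understated.

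Counts were scaled with TMM (edgeR 4.0.16, R 4.3.3) over the 4 libraries, with factors of 1.12 at 48 h and 1.06 at 24 h. No edgeR test was run. At 5 CPM, about 185 reads, equal counts have an interval of -0.30 to 0.30 in log2. The computation was tested on simulated data. The named genes are those with the 2 largest and 2 smallest ratios, the rule set for identifiers without names. The comparison and the lists were chosen with earlier results of these data known. Places, the stretch, length and coverage views were added after seeing the values. Functional lists were not used, since no identifier matched a name. Alternatives used DESeq2 1.42.0 size factors, plain totals, TMM over 2 libraries, other pseudocounts and other filters.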

Additional observations from a re-analysis of the deposited data

Results flagged for a closer look

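Some genes with no read in one of the libraries, which the comparison leaves out, had reads in the other. With no read at 24 h, 121 genes had over 3 reads at 48 h, the limit that a count of 0 allows, 11 of them at least 20 reads, and the highest count was 76. With no read at 48 h, 65 genes had over 3 reads at 24 h, 1 of them at least 20 reads, and the highest count was 24. At 48 h 1075 genes were listed that were not listed at 24 h, and 836 the other way round.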

How the results depend on the processing

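No paired analysis was possible because 48 h and 24 h have 1 library each, and neither could be left out. With DESeq2 size factors, TMM over the 48 h and 24 h libraries alone, and a pseudocount of 0.5 reads, the 4-fold and 2-fold counts stayed within 1.5 times, and all 28 genes beyond 4-fold were kept. With plain totals 12 of the 14 lower genes were kept. A pseudocount of 25 reads left 11 of the 14 higher and 9 of the 14 lower genes. Without a minimum, over 22488 genes, 72 were 4-fold higher and 32 lower, and 535 and 473 at 2-fold. A minimum of 20 CPM, over 7490 genes, left 4 and 4, and 63 and 114. Both filters change the number of genes by construction. The filter on the 48 h and 24 h libraries alone gave 16 and 17 genes at 4-fold. The median of the 50 most abundant genes was -0.14 with DESeq2 size factors and -0.084 with plain totals. That of the 500 most abundant was -0.039 with DESeq2 size factors, 0.021 with plain totals and -0.049 with TMM over 2 libraries. For genes 2-fold higher at 3 h than at 0 h, the median of 48 h to 24 h was -0.0014 with DESeq2 size factors, 0.053 with plain totals, -0.012 with 25 reads, -0.10 at 20 CPM and -0.040 with the filter on 2 libraries. The sign of the last 2 medians therefore turned with plain totals, a scaling that moved the median of all genes from 0.0015 to 0.07 as well. In the stretch on chromosome 1, 11 or 12 of 28 genes were 2-fold lower and 28 were below 24 h under the 3 other scalings, an alternative chosen after seeing the data. The 4 named genes stayed beyond 4-fold in each setting that kept them. Alternatives for functional lists were not run, since no identifier matched a name.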
